A study of Mus musculus with 12 samples.

Results

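Matrix metalloproteinases (MMPs) and tissue inhibitors of metalloproteinases (TIMPs) were followed in C4-HD mammary carcinomas of BALB/c mice during treatment with mifepristone (MFP). The genes were Mmp2, Mmp3, Mmp8, Mmp9, Mmp11, Mmp12, Mmp13, Mmp14, Timp1 and Timp3. Every probe set that the platform annotation assigns to 1 of these 10 symbols alone was taken, which gave 17 of the 45101 probe sets of the array: 12 for the 8 MMP genes and 5 for the 2 TIMP genes. Mmp2 and Mmp9 have 2 probe sets each, Mmp14 has 3, Timp3 has 4, and the other genes have 1.

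Total RNA of formalin-fixed, paraffin-embedded carcinomas was hybridised to 12 Affymetrix arrays, 2 for each of 6 groups. The tumours were grown in mice that carried a pellet of MPA, a synthetic progestin. In the MFP groups, labelled 6 h, 12 h, 24 h and 48 h, the MPA pellet had been taken out at a tumour area of 50 mm2 and MFP, an antagonist of the progesterone receptor, was given subcutaneously at 10 mg/kg/day. The no MPA group is labelled as saline-treated for 48 h, and the MPA group as growing with MPA. A difference between MFP and MPA therefore holds both the loss of MPA and the presence of MFP. The labels leave some points unsettled: the treatment notes call saline-treated tumours with MPA the control, whereas the saline arrays carry the source name no MPA, and the series text lists 12, 24 and 48 h but not 6 h. The submitters call the arrays of a condition independent replicates, yet no label ties an array to an animal, so the spread behind the p-values is that between arrays, which may be partly technical.

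Each deposited value is a log2 ratio whose denominator is the linear average of both MPA arrays, so that 0 stands for MPA. They keep differences between arrays but not the level of a gene above background. The levels of different genes could therefore not be ordered, and whether a gene was absent from a sample could not be read. The number of arrays limits the precision. In RNA from whole tumours, fewer cells of a type and less RNA per cell cannot be told apart.

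MMPs are zinc-dependent proteases that cut components of the extracellular matrix, such as collagens, laminins and elastin, and also release growth factors and receptors from it. Most are secreted as inactive precursors and are activated by other proteases, among them plasmin and the membrane-bound MMP14. TIMPs bind the active site and block it. In the mammary gland both are known for their part in branching and in the remodelling after weaning, and in carcinomas many MMPs come from stromal and immune cells rather than from the tumour cells.

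Of the MMP genes 4 lie in the cluster of MMP genes on mouse chromosome 9. In the RefSeq annotation of GRCm38.p6 Mmp13 (chr9:7272514-7283333), Mmp12 (chr9:7344397-7360461), Mmp3 (chr9:7445822-7455975) and Mmp8 (chr9:7558429-7568486) lie there in this order. The cluster holds 10 MMP genes. Mmp2 lies at chr8:92827290-92853421, Mmp9 at chr2:164940326-164955850, Mmp14 at chr14:54431598-54442456, Mmp11 at chr10:75923221-75932502, Timp3 at chr10:86300412-86349505 and Timp1 at chrX:20870166-20874737. Each interval is the whole gene, exons and introns together.

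RefSeq promoter windows of GRCm38.p6, from 250 bases before to 50 bases after the annotated start, were matched for 8 of the 10 genes, and Mmp2 and Mmp9 were not matched. Both strands were searched for the AP-1 letters TGANTCA, which read the same on either strand, and for AGGAAG, the letters of a PEA3 or ETS site, which appear as CTTCCT when on the other strand. The 2 motifs do not overlap in any of the windows shown. The 250 bases before the start are given for 5 genes because they differ in these letters and in their course under MFP. Mmp3 and Mmp8 are the genes whose difference between 48 h and 24 h passed the test. Mmp13 is the member of the same cluster whose arrays scattered most. Timp1 is the inhibitor with the widest range, and Mmp11 is the only gene with a falling course. Capitals mark the matched letters. The intervals are chr9:7445572-7445821 (plus strand) for Mmp3, chr9:7558179-7558428 (plus strand) for Mmp8, chr9:7272264-7272513 (plus strand) for Mmp13, chrX:20869916-20870165 (plus strand) for Timp1 and chr10:75932503-75932752 (minus strand) for Mmp11, each written 5′ to 3′.
Mmp3: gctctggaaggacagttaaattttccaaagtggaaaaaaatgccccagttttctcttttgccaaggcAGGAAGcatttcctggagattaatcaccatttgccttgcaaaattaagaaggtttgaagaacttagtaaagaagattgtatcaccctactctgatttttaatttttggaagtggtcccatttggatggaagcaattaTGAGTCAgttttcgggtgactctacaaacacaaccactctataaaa
Mmp8: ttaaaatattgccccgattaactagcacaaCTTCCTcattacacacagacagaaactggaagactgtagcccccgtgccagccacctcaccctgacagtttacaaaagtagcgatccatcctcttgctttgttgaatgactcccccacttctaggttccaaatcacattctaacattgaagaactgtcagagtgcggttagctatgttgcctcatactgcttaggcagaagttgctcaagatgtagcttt
Mmp13: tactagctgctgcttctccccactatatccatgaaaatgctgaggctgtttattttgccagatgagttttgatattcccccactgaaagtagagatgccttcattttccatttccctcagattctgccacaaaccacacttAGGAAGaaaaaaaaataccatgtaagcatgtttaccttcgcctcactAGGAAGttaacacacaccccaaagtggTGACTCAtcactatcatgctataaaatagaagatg
Timp1: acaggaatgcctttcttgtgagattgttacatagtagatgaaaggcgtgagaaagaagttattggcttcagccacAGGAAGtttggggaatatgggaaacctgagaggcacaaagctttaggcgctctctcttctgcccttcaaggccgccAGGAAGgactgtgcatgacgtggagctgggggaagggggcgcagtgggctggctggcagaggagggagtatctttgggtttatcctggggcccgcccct
Mmp11: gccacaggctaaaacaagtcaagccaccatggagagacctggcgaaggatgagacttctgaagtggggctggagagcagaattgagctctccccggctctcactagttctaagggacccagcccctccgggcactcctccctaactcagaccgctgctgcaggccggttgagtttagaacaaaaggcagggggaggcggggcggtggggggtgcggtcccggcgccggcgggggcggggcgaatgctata

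AP-1 letters were found in the windows of Mmp3 and Mmp13, above, at 46 and 35 bases before the start, and in 1 of the 2 windows of Mmp12, at 44 bases before it, thus in 3 of 8 genes. By window this was 3 of 9, against 7.81% of the 32851 mouse windows. AGGAAG or its reverse was found in 7 of the 8 genes, Mmp11 being the exception. By window this was 7 of 9, against 35.4% of all windows. Of Mmp8 and Mmp3, the window of Mmp3 has the AP-1 letters while that of Mmp8 does not. These matches describe the letters in the windows and say nothing of binding.

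The question asked first was how the genes differed between tumours at 48 h of MFP and tumours with MPA. Of the 17 probe sets 10 rose and 0 fell (adjusted p at 0.05, limma with Benjamini-Hochberg adjustment over 45037 probe sets), and 14 were higher and 0 lower at an unadjusted p under 0.05. The 10 stood for 7 genes: Mmp2, Mmp3, Mmp8, Mmp9, Mmp14, Timp1 and Timp3. Among all probe sets 4.37% rose and 4.88% fell in this comparison. Of the 45037 probe sets 10787 had an unadjusted p under 0.05 in either direction. The members' median log2 change was 1.67, against -0.02 over all probe sets. The members were chosen with earlier results of these data known. Their counts and medians beside those of all probe sets are thus a description and not a test, here and below. Of 13 other measured MMP, TIMP and RECK genes, 1 probe set each, 3 rose in this comparison, with a median change of 0.16. Both 48 h arrays lay above both MPA arrays for 16 of the 17 probe sets, the exception being 1440920_at of Mmp14, against 23.3% of all probe sets. The 48 h arrays lay above all 10 other arrays for 11 of the 17 probe sets, from 6 genes (Mmp2, Mmp3, Mmp8, Mmp9, Timp1 and Timp3), against 5.96% of all probe sets. The number of member probe sets called rested on single arrays: leaving out MPA replicate 1 gave 4, MFP 48 h replicate 2 also 4, MFP 48 h replicate 1 gave 6 and MPA replicate 2 gave 10. Mmp8, 1 probe set of Mmp2 (1439364_a_at) and 1 of Mmp14 (1448383_at) stayed past the threshold whichever array was left out. When 1 of the arrays compared is left out, its group has a single array that is assumed to vary like the other groups, here and in all such fits below. With quantile normalization, and with the compared arrays alone, 1 of the 17 probe sets passed, that of Mmp8.

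**Figure D1:**
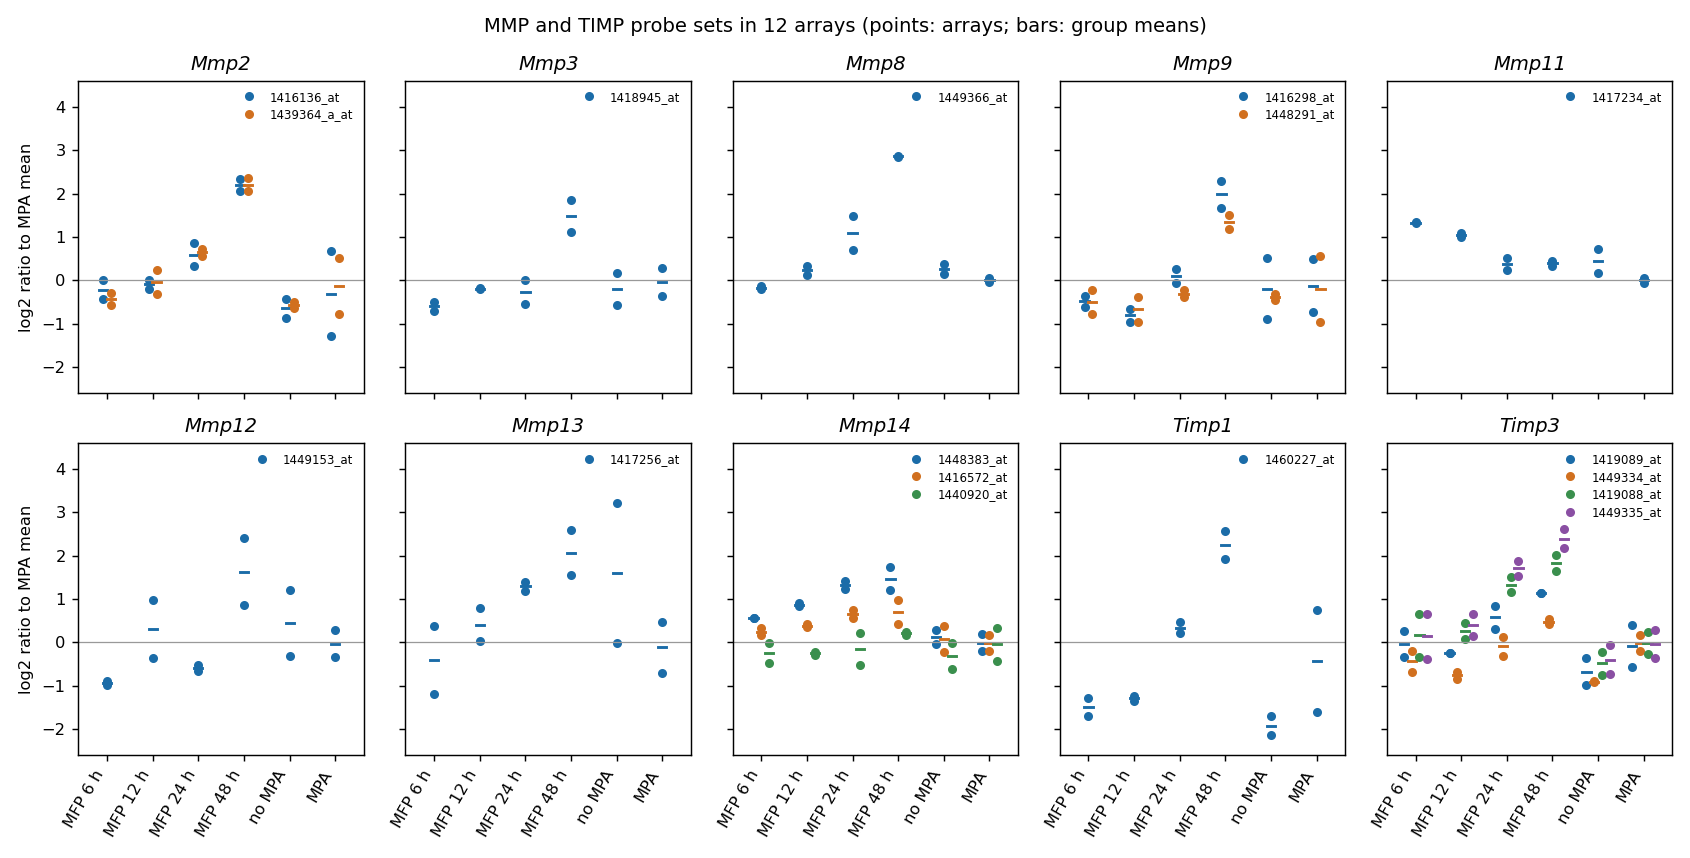
Log2 ratio to the MPA mean (vertical axis) for the 10 genes, 1 panel each, in the 4 MFP groups from 6 h to 48 h, then no MPA and MPA; each point is 1 array, short bars are group means and colours are probe sets of a gene. Mmp8 stood at 2.86 in both 48 h arrays and Timp1 at 1.92 and 2.57, whereas Mmp11 was highest at 6 h, at 1.35 and 1.31.

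The gelatinases, MMP2 and MMP9, cut denatured collagen and the collagen of basement membranes. Mmp2 (1416136_at) had log2 ratios of -0.44 and -0.0012 on the 6 h arrays, -0.19 and 0.0034 on the 12 h arrays, 0.32 and 0.85 on the 24 h arrays, and 2.06 and 2.34 on the 48 h arrays of MFP, against -0.86 and -0.43 in no MPA and -1.30 and 0.67 in MPA. The 48 h arrays lay above all others, and the 2 MPA arrays lay on either side of all the 6 h, 12 h and no MPA arrays. The log2 fold change at 48 h over MPA was 2.52 ± 0.50 (SE, n = 2 arrays per group here and below; adjusted p = 0.0147). The second probe set, 1439364_a_at, had 2.06 and 2.35 on the 48 h arrays, against -0.78 and 0.50 in MPA, a change of 2.35 ± 0.36 (adjusted p = 0.00596). Both probe sets of Mmp2 rose, and their values correlated with r = 0.98 over the 12 arrays. Leaving out each array in turn gave changes between 1.70 and 2.99 for 1439364_a_at, always past the threshold, and between 1.53 and 3.50 for 1416136_at, which missed it without MFP 48 h replicate 1 or replicate 2 (highest adjusted p 0.0673).

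Mmp9 (1416298_at) had log2 ratios of -0.36 and -0.61 on the 6 h arrays, -0.65 and -0.97 on the 12 h arrays, -0.07 and 0.26 on the 24 h arrays, and 1.67 and 2.29 on the 48 h arrays, against 0.51 and -0.90 in no MPA and -0.74 and 0.49 in MPA. The arrays of the first 3 times lay within the range of no MPA and MPA, apart from 12 h replicate 2 just below it, and those of 48 h lay above it. The change at 48 h over MPA was 2.11 ± 0.47 (adjusted p = 0.023), and for 1448291_at it was 1.53 ± 0.42 (adjusted p = 0.0464), from 1.50 and 1.17 on the 48 h arrays against -0.96 and 0.57 in MPA. Both probe sets rose, and both calls rested on single arrays: 1416298_at missed the threshold without MPA replicate 1, MFP 48 h replicate 1 or MFP 48 h replicate 2 (highest adjusted p 0.153), and 1448291_at missed it without any array except MPA replicate 2 (highest adjusted p 0.237).

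The collagenases MMP8 and MMP13 cut fibrillar collagen, and MMP8 is best known as the collagenase stored in neutrophil granules. Mmp8 (1449366_at) had log2 ratios of -0.14 and -0.21 on the 6 h arrays, 0.32 and 0.13 on the 12 h arrays, 1.47 and 0.70 on the 24 h arrays, and 2.86 and 2.86 on the 48 h arrays, against 0.38 and 0.15 in no MPA and -0.05 and 0.05 in MPA. The 24 h and 48 h arrays lay above all 8 others, with no overlap between the 24 h and the 48 h values. The change over MPA was 1.09 ± 0.24 at 24 h (adjusted p = 0.0272) and 2.86 ± 0.24 at 48 h (adjusted p = 0.000923), the smallest adjusted p at 48 h among the 17 probe sets. At 48 h it lay between 2.81 and 2.91 whichever array was left out (highest adjusted p 0.0141). The 24 h call was lost without MPA replicate 1, MPA replicate 2 or MFP 24 h replicate 1, with changes from 0.70 to 1.47.

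Mmp13 (1417256_at), the other collagenase, had log2 ratios of 0.37 and -1.19 on the 6 h arrays, 0.03 and 0.79 on the 12 h arrays, 1.40 and 1.18 on the 24 h arrays, and 2.58 and 1.54 on the 48 h arrays, against 3.21 and -0.02 in no MPA and -0.70 and 0.47 in MPA. Its highest value of all 12 arrays was no MPA replicate 1, while the other no MPA array lay between the 2 MPA arrays. The change at 48 h over MPA was 2.18 ± 0.89 (adjusted p = 0.164), which did not pass the test although its size was like that of Mmp2.

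MMP3, a stromelysin, cuts many matrix proteins and activates other MMPs, and MMP12 is the elastase of macrophages. Mmp3 (1418945_at) had log2 ratios of -0.70 and -0.50 on the 6 h arrays, -0.20 and -0.18 on the 12 h arrays, 0.01 and -0.56 on the 24 h arrays, and 1.10 and 1.84 on the 48 h arrays, against -0.58 and 0.18 in no MPA and 0.29 and -0.36 in MPA. No array before 48 h was above the higher MPA array, and both 48 h arrays were. The change at 48 h was 1.51 ± 0.34 over MPA (adjusted p = 0.0234), and it missed the threshold without MPA replicate 1, MPA replicate 2 or MFP 48 h replicate 2 (range 1.14 to 1.88, highest adjusted p 0.127). Mmp12 (1449153_at) had 2.40 and 0.87 on the 48 h arrays, between -0.98 and 0.98 at the earlier times, 1.20 and -0.31 in no MPA, and -0.35 and 0.28 in MPA. The 48 h arrays of Mmp12 differed by more than 1 log2 unit, and its change of 1.67 ± 0.60 over MPA did not pass (adjusted p = 0.113).

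MMP11, or stromelysin-3, is activated inside the cell and is known from the stroma of carcinomas. Its course was unlike that of the other MMPs. Mmp11 (1417234_at) had log2 ratios of 1.35 and 1.31 on the 6 h arrays, 1.005 and 1.08 on the 12 h arrays, 0.52 and 0.24 on the 24 h arrays, and 0.34 and 0.45 on the 48 h arrays, against 0.72 and 0.17 in no MPA and 0.06 and -0.06 in MPA. The 6 h arrays were the highest, the 12 h arrays the next, and the 24 h and 48 h arrays lay within the range of no MPA. The change over MPA was 1.33 ± 0.21 at 6 h (adjusted p = 0.0236), 1.04 ± 0.21 at 12 h (adjusted p = 0.0264) and 0.39 ± 0.21 at 48 h (adjusted p = 0.29). It was the 1 member of 17 that rose at 6 h, when 0.244% of all probe sets rose and 0.682% fell, and again the 1 member that rose at 12 h, when 1.30% rose and 1.83% fell. At these times 0 members fell, and 0 at 6 h and 1 at 12 h were lower at an unadjusted p under 0.05. Of the 45037 probe sets 6317 at 6 h and 7602 at 12 h were under it, in either direction. Without MPA replicate 1 the 1 member called at 6 h, and again at 12 h, was Timp1, lower than MPA with differences of -2.24 (adjusted p = 0.0417) and -2.03 (adjusted p = 0.0334). With all arrays these were -1.07 and -0.86 and did not pass, and without MPA replicate 2 they were 0.11 and 0.31. With quantile normalization or the compared arrays alone 0 members passed at either time. Both calls of Mmp11 were lost without either MPA array or either array of the same time (highest adjusted p 0.137 at 6 h and 0.156 at 12 h), with changes between 1.28 and 1.39 on the 6 h arrays and between 0.99 and 1.10 on the 12 h arrays. Markers of exocrine pancreas were also high at 6 h, with list medians of 6.16 and 4.53 on the arrays, against 0.48 and -0.72 in MPA. They were lower at 12 h, at 0.16 and 0.82, when Mmp11 was still high, and their part in the 6 h value was not tested.

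MMP14 is the membrane-bound MMP that activates the MMP2 precursor. Mmp14 (1448383_at) had log2 ratios of 0.56 and 0.55 on the 6 h arrays, 0.83 and 0.90 on the 12 h arrays, 1.43 and 1.22 on the 24 h arrays, and 1.21 and 1.74 on the 48 h arrays, against 0.28 and -0.04 in no MPA and -0.21 and 0.18 in MPA. All 8 MFP arrays lay above all 4 arrays without MFP on this probe set. The change over MPA was 1.34 ± 0.23 at 24 h (adjusted p = 0.00903) and 1.49 ± 0.23 at 48 h (adjusted p = 0.00623). The 48 h call held without any 1 array (1.22 to 1.75, highest adjusted p 0.0471), and the 24 h call was lost without MPA replicate 1 (adjusted p = 0.066). The other probe sets changed less at 48 h and did not pass in limma. The change was 0.72 ± 0.26 for 1416572_at (adjusted p = 0.113) and 0.26 ± 0.33 for 1440920_at (adjusted p = 0.709). The 48 h arrays of 1416572_at, at 0.43 and 0.98, lay above both MPA arrays, at -0.20 and 0.18. The change of 1440920_at turned to -0.12 without MPA replicate 1. Over the 12 arrays 1448383_at correlated with 1416572_at (r = 0.93) but less with 1440920_at (r = 0.41). The calls of Mmp14 over MPA rest on 1 of 3 probe sets.

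**Figure D2:**
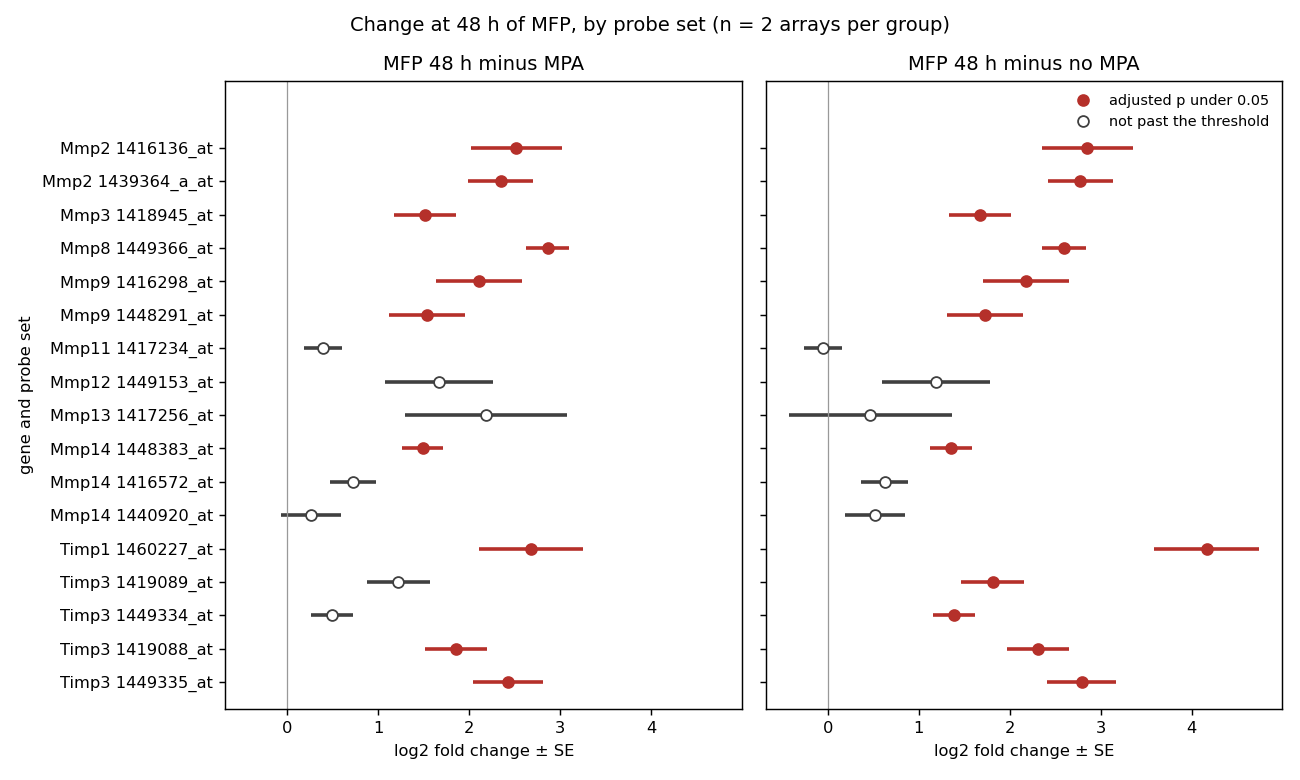
Log2 fold change with its standard error (horizontal axis) of each probe set, at MFP 48 h minus MPA (left) and MFP 48 h minus no MPA (right); filled red points have an adjusted p under 0.05 and open points do not. On the left 10 of 17 probe sets passed and on the right 12, with Timp1 at 4.17 the farthest right.

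TIMP1 is a secreted inhibitor of most MMPs and is induced by cytokines. Timp1 (1460227_at) had log2 ratios of -1.71 and -1.29 on the 6 h arrays, -1.36 and -1.23 on the 12 h arrays, 0.22 and 0.46 on the 24 h arrays, and 1.92 and 2.57 on the 48 h arrays, against -2.13 and -1.71 in no MPA and -1.61 and 0.74 in MPA. The 6 h and 12 h arrays lay near MPA replicate 1 and no MPA, the 24 h arrays below MPA replicate 2, and the 48 h arrays above all others. The 2 MPA arrays differed by 2.35, the widest gap between them among the 17 probe sets. The change at 48 h over MPA was 2.68 ± 0.57 (adjusted p = 0.0196), and it missed the threshold without MPA replicate 1, where it was 1.50, and without either 48 h array (highest adjusted p 0.0967). Without MPA replicate 2 it was 3.85.

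TIMP3 is bound to the matrix and also inhibits ADAM proteases such as the sheddase of TNF. Timp3 (1449335_at) had log2 ratios of -0.38 and 0.66 on the 6 h arrays, 0.14 and 0.66 on the 12 h arrays, 1.53 and 1.89 on the 24 h arrays, and 2.17 and 2.61 on the 48 h arrays, against -0.73 and -0.06 in no MPA and -0.36 and 0.29 in MPA. The 24 h arrays lay above all arrays of 6 h, 12 h, no MPA and MPA, and the 48 h arrays higher still. The change over MPA was 1.74 ± 0.38 at 24 h (adjusted p = 0.0272) and 2.43 ± 0.38 at 48 h (adjusted p = 0.00665). For 1419088_at the changes were 1.35 ± 0.34 at 24 h (adjusted p = 0.0454) and 1.85 ± 0.34 at 48 h (adjusted p = 0.0117). The remaining 2 probe sets did not pass at 48 h, with 1.22 ± 0.34 for 1419089_at (adjusted p = 0.0526) and 0.49 ± 0.23 for 1449334_at (adjusted p = 0.233). The fitted changes of Timp3 at 48 h thus lay between 0.49 and 2.43 on its 4 probe sets, while their correlations over the 12 arrays lay between 0.78 and 0.996. Without MPA replicate 1 the 48 h calls of 1449335_at (adjusted p = 0.0532) and 1419088_at were lost, the second also without MFP 48 h replicate 2 (highest adjusted p 0.0818). At 24 h 1449335_at missed the threshold without MPA replicate 1 or MFP 24 h replicate 2, and 1419088_at missed it without any array outside the 6 h group.

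At 24 h of MFP, 4 of the 17 probe sets rose over MPA and 0 fell, against 2.88% of all probe sets rising and 3.13% falling. At an unadjusted p under 0.05 in limma 5 members were higher and 0 lower, against 9344 of 45037 probe sets in either direction. The 4 that rose were those of Mmp8, Mmp14 (1448383_at) and Timp3 (2 probe sets) described above, and 0 passed with quantile normalization or the compared arrays alone. Liver markers were high on both 24 h arrays, with list medians of 3.75 and 4.11, against 0.82 and -2.09 in MPA, and 13 of 15 of them rose, against 4.41% of all genes. Pancreas markers were high on 1 of the 24 h arrays, at 6.88 in replicate 2 and 0.78 in replicate 1. The part of either in the 24 h values was not tested.

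The second question was whether the genes differed once MPA was absent, with and without MFP. At 48 h of MFP over no MPA 12 of 17 probe sets rose and 0 fell, against 5.08% of all probe sets rising and 4.28% falling. At an unadjusted p under 0.05 in limma 13 members were higher and 0 lower, against 10502 of 45037 probe sets in either direction. The 12 that rose stood for the same 7 genes as over MPA. The values at MFP 48 h are those above, and the control arrays of this comparison are the no MPA arrays. Timp1 changed most, by 4.17 ± 0.57 (adjusted p = 0.00333), from 1.92 and 2.57 on the 48 h arrays against -2.13 and -1.71 in no MPA, and stayed between 3.84 and 4.49 whichever array was left out (highest adjusted p 0.0325). All 4 probe sets of Timp3 rose here, by 1.38 to 2.79, with 1419089_at missing the threshold without no MPA replicate 1 or MFP 48 h replicate 1 (highest adjusted p 0.0872). Mmp2 rose by 2.85 and 2.78 on its probe sets (adjusted p 0.00766 and 0.00267), and Mmp8 by 2.59 (adjusted p = 0.0014).

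The other rises over no MPA rested more on single arrays. Mmp3 rose by 1.67 (adjusted p = 0.0142), a call lost without no MPA replicate 1 or MFP 48 h replicate 2 (highest adjusted p 0.111). Mmp9 rose by 2.18 on 1416298_at, lost without no MPA replicate 2 or MFP 48 h replicate 2 (highest adjusted p 0.124), and by 1.73 on 1448291_at, lost without any 1 of the 4 arrays compared (highest adjusted p 0.136). Mmp14 rose by 1.35 on 1448383_at (adjusted p = 0.00664), lost without no MPA replicate 2 (adjusted p = 0.0536), and the call of Mmp2 on 1416136_at was lost without no MPA replicate 1 (adjusted p = 0.0631). Mmp11 (-0.05, adjusted p = 0.921), Mmp12 (1.19, adjusted p = 0.269) and Mmp13 (0.47, adjusted p = 0.821) did not pass, and the fits of Mmp11 and Mmp13 changed sign when 1 array was left out, with ranges of -0.33 to 0.22 and -1.15 to 2.09. The number of member probe sets called over no MPA was 8 to 12 without each array in turn, 11 with the compared arrays alone, and 1 (Mmp8) with quantile normalization.

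Between no MPA and MPA, 0 of 17 probe sets passed the test in limma, with 2 at an unadjusted p under 0.05, both lower in no MPA. Over all probe sets 0 of 45037 passed, 0% in either direction, and 2963 had an unadjusted p under 0.05. The fitted differences of the members lay between -1.49 for Timp1 (adjusted p = 0.722) and 1.71 for Mmp13 (adjusted p = 0.803, 95% interval -0.27 to 3.69). With 2 arrays per group this does not show that the groups were alike. The comparisons over MPA and over no MPA share the MFP 48 h arrays, and those of the MFP times over MPA share the MPA arrays.

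Among successive times, the step from 6 h to 12 h was not tested here. Between 24 h and 12 h 0 member probe sets passed in limma, when 1.11% of all probe sets rose and 0.411% fell. At an unadjusted p under 0.05 there were 7, 1 of them lower at 24 h than at 12 h. Of the 45037 probe sets 6386 were under it, in either direction. Between 48 h and 24 h 2 member probe sets rose, when 0.286% of all probe sets rose and 0.890% fell. The 2 were Mmp3, higher at 48 h than at 24 h by 1.74 ± 0.34 (adjusted p = 0.0388), and Mmp8, higher by 1.77 ± 0.24 (adjusted p = 0.0062). The difference for Mmp8 held without any 1 array (1.39 to 2.16), and that for Mmp3 was lost without any 1 of 7 arrays (1.37 to 2.11, highest adjusted p 0.198). With quantile normalization or the compared arrays alone 0 passed between 48 h and 24 h, and without either MPA array 6 did, from Mmp2, Mmp3, Mmp8, Mmp9 and Timp1. Both 48 h arrays lay above both 24 h arrays for 13 of the 17 probe sets, against 22.1% of all probe sets.

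Over the 4 MFP times the slope per doubling of hours was above 0 and past the threshold for 13 of 17 probe sets, from 8 genes, and below 0 for 1, Mmp11, against 6.02% and 6.01% of all probe sets. Timp1 had the steepest slope, 1.29 ± 0.18 log2 units per doubling (adjusted p = 0.00251), followed by Mmp8 with 0.997 ± 0.08 (adjusted p = 0.000525). Mmp2 had 0.79 and 0.86 on its 2 probe sets, Mmp9 0.83 and 0.59, Mmp3 0.61, and Timp3 between 0.34 and 0.81 on its 4. Mmp14 rose by 0.32 per doubling on 1448383_at, and its other 2 probe sets did not pass. Mmp12 passed in this test, with a slope of 0.68 ± 0.19 (adjusted p = 0.0408), but not without either 6 h array, either 24 h array, 12 h replicate 2 or 48 h replicate 1 (highest adjusted p 0.212). Mmp11 fell by 0.35 ± 0.07 per doubling (adjusted p = 0.00791), and this slope stayed between -0.36 and -0.33 whichever array was left out (highest adjusted p 0.0457). Mmp13 did not pass (0.83 ± 0.28, adjusted p = 0.086). The trend was also lost for Mmp2 1416136_at without 6 h replicate 1 (adjusted p = 0.0613), and for Mmp9 1448291_at without 6 h replicate 2 or 48 h replicate 1 (highest 0.106). It was lost for Mmp14 1448383_at without either 6 h array or 48 h replicate 2 (highest 0.097), for Timp3 1419089_at without 6 h replicate 1 or either 48 h array (highest 0.154), and for Timp3 1449334_at without 6 h replicate 1 or 48 h replicate 2 (highest 0.0941). The number of member probe sets with a called trend was 9 to 15 without each array in turn, and 2 (Mmp8 and Mmp11) with quantile normalization.

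A measure of RNA state also moved over the MFP times. It is a difference of log2 ratios to the MPA mean, so its value in MPA is near 0 by construction. The 3′ minus 5′ difference of the Actb control probe sets was 0.16 ± 0.05, 0.35 ± 0.02, 0.43 ± 0.11 and 0.53 ± 0.09 at the MFP times in order, against 0.02 ± 0.16 in no MPA and -0.01 ± 0.09 in MPA (SD, n = 2 arrays). For Gapdh it was 0.02, 0.28, 0.49 and 0.42 at the MFP times, against -0.01 in no MPA and 0.02 in MPA. Its part in the slopes was not tested.

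The RNA values of inhibitor and protease were compared within each array as the difference of their log2 ratios, which is relative to the same difference in the MPA mean. Such a difference does not give the balance of the proteins or of their activity, which were not measured. These pairs were chosen after the values had been seen and are given as a description. Timp1 was read on 1460227_at, Timp3 on 1449335_at, Mmp2 on 1416136_at, Mmp9 on 1416298_at and Mmp14 on 1448383_at. These are the most variable probe sets of each gene. Timp1 minus Mmp2 was -1.27 and -1.29 on the 6 h arrays, -1.16 and -1.24 on the 12 h arrays, -0.10 and -0.39 on the 24 h arrays, and -0.15 and 0.23 on the 48 h arrays, against -1.27 and -1.28 in no MPA and -0.31 and 0.07 in MPA. On this Mmp2 probe set values from -1.29 to -1.16 belonged to the 6 h, 12 h and no MPA arrays. Values from -0.39 to 0.23 belonged to the rest, with none in between. On the other Mmp2 probe set, 1439364_a_at, MPA replicate 1 was at -0.78 instead of -1.30. With that probe set the difference for MPA replicate 1 lies nearer to the 6 h, 12 h and no MPA arrays, and the gap is narrower. Timp1 minus Mmp9 had no such gap: it ran from -2.64 to -0.26 in the 6 h, 12 h and no MPA arrays and from -0.87 to 0.30 in the rest. Timp1 minus Mmp14 was -2.27 and -1.85 on the 6 h arrays, -2.18 and -2.13 on the 12 h arrays, -1.20 and -0.76 on the 24 h arrays, and 0.71 and 0.83 on the 48 h arrays, against -2.41 and -1.67 in no MPA and -1.40 and 0.56 in MPA. For Timp1 relative to Mmp14 the 48 h arrays were the highest of the 12. Timp3 minus Mmp2 stayed between 0.05 and 1.21 in the MFP arrays, against 0.13 and 0.37 in no MPA and 0.94 and -0.38 in MPA. This depends on the Timp3 probe set, as Mmp2 stood at 2.06 and 2.34 on the 48 h arrays. The other Timp3 probe sets lay below that, at 1.64 and 2.02 (1419088_at), 1.15 and 1.13 (1419089_at), and 0.42 and 0.54 (1449334_at).

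**Figure D3:**
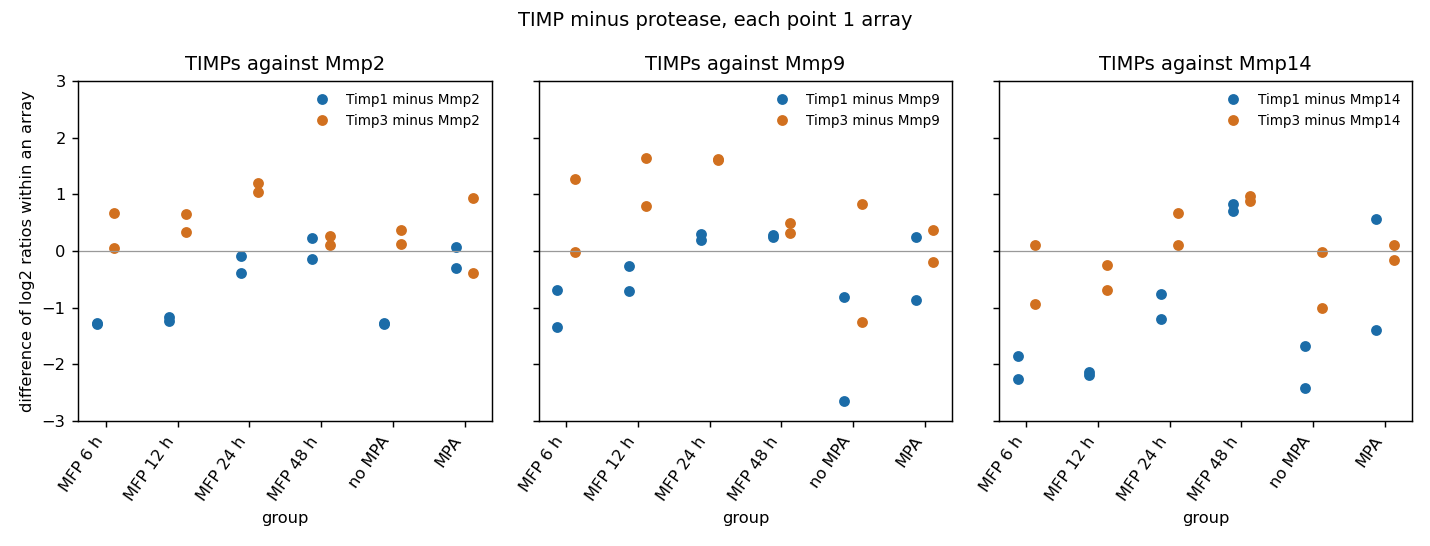
Difference of the log2 ratios of an inhibitor and a protease within each array (vertical axis), by group from MFP 6 h to MFP 48 h, then no MPA and MPA, with 1 panel for each protease; each point is 1 array, blue for Timp1 and orange for Timp3. Each gene is shown by its most variable probe set. Timp1 minus Mmp2 (1416136_at) ran from -1.29 to -1.16 in the 6 h, 12 h and no MPA arrays, and in the rest it ran from -0.39 to 0.23.

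The MPA arrays differed from each other in a way that touches most of these results. Of the 17 probe sets 15 were higher in MPA replicate 2 than in replicate 1, with a median gap of 0.65 and gaps from -0.65 to 2.35, against 47.3% of all probe sets. Macrophage and fibroblast markers showed the same order, with list medians of -0.80 and 0.51, and of -0.46 and 0.35, in MPA replicate 1 and 2. Liver and pancreas markers showed the opposite order, with list medians of 0.82 and -2.09, and of 0.48 and -0.72. Within a group, the difference of its 2 arrays had an SD of 0.39 to 0.56 over all probe sets, and no 2 arrays were identical.

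Further genes of the pathway were taken from lists, 1 probe set per gene, with 6.30% of all 18193 genes rising and 5.97% falling at 48 h over MPA. In this comparison 0 genes of any list below passed with quantile normalization, and with the compared arrays alone 0 passed except 8 pancreas markers. Of 13 other measured MMP, TIMP and RECK genes 3 rose and 0 fell, with a median change of 0.16. Those that rose were Reck, a membrane-anchored MMP inhibitor (2.36 ± 0.43, adjusted p = 0.0108), Timp2, which helps MMP14 to activate MMP2 and also inhibits it (1.41 ± 0.27, adjusted p = 0.013), and Mmp19 (2.34 ± 0.53, adjusted p = 0.0245). Leaving out MPA replicate 1 left 0 of them, MFP 48 h replicate 1 left 1 and MFP 48 h replicate 2 left 2, while without MPA replicate 2 there were 4. Of 10 plasminogen activation genes 2 rose, Lrp1, which clears protease complexes (1.50 ± 0.31), and Tfpi2, a serine protease inhibitor (1.76 ± 0.44), and neither did without MPA replicate 1 or either 48 h array. Tfpi2 also missed the threshold without either 12 h or either no MPA array, and the number of plasminogen genes was 5 without MPA replicate 2.

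Of 24 ADAM and ADAMTS genes, which encode related metalloproteases, 5 rose and 1 fell, with a median of 0.37. Adam8, an ADAM of leukocytes, rose by 3.31 ± 0.39 (adjusted p = 0.00305), with 3.01 and 3.40 on the 48 h arrays against -0.66 and 0.45 in MPA. Adam19 rose by 2.16 ± 0.40 and Adam9 by 1.24 ± 0.22, while Adamts3, a procollagen peptidase, fell by 2.38 ± 0.33 on the log2 scale (adjusted p = 0.00445). Adam8 and Adamts3 passed whichever array was left out, but not with quantile normalization or the compared arrays alone. Leaving out MPA replicate 1 left 1 gene that rose, MFP 48 h replicate 1 left 2 and MFP 48 h replicate 2 left 3.

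Genes of the matrix proteins that MMPs cut rose in the same comparison. Of 21 collagen and matrix genes 15 rose (0 with quantile normalization or the compared arrays alone) and 0 fell, with a median of 1.86 against 0.00 over all genes. Col6a1, a collagen VI chain, rose by 1.76 ± 0.21 (adjusted p = 0.00308), Nid1, a linker of basement membranes, by 2.09 ± 0.28, and Col18a1, a basement membrane collagen, by 1.87 ± 0.31. Leaving out MPA replicate 1 gave 7, MFP 48 h replicate 1 gave 8 and MFP 48 h replicate 2 gave 7, and Col6a1 and Nid1 passed in each of these fits. Among the lists without a call downwards here, at an unadjusted p under 0.05 1 of these matrix genes was lower and 0 of the MMP, TIMP and RECK, plasminogen, cytokine, macrophage, fibroblast and neutrophil genes.

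Regulators of MMP genes formed a pair of lists. Of 16 cytokines and growth factors that induce MMPs 3 rose and 0 fell, namely Hgf (1.58 ± 0.25), Pdgfb (1.19 ± 0.20) and Fgf2 (1.45 ± 0.37), and none of them passed without MPA replicate 1. The number was 5 without MFP 48 h replicate 1 and 2 without replicate 2. Of 18 transcription factors that act on MMP promoters 2 rose, Runx1 (1.15 ± 0.20) and Snai1 (0.91 ± 0.24), and 3 fell. Jun, a subunit of AP-1, the factor of the TGANTCA letters shown above for Mmp3 and Mmp13, fell by 1.25 ± 0.27 (adjusted p = 0.0197), with -1.39 and -1.11 on the 48 h arrays against -0.12 and 0.11 in MPA. Sp1 (-0.92 ± 0.23) and Etv4 (-0.74 ± 0.20) also fell. The calls of Jun, Sp1 and Etv4 were each lost without any 1 of the 4 arrays compared (highest adjusted p 0.0971 for Jun, 0.141 for Sp1 and 0.191 for Etv4), that of Etv4 without any of the 12. Snai1 passed only without MPA replicate 2 or either 24 h array, and without MPA replicate 1 neither a rise nor a fall passed.

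Markers of stromal and immune cells moved with the MMP and TIMP genes. Of 16 macrophage markers 11 rose (0 with quantile normalization or the compared arrays alone) and 0 fell at 48 h over MPA, with list medians of 1.87 and 1.78 on the 48 h arrays against -0.80 and 0.51 in MPA. They included Cd68 (2.73 ± 0.32) and Adgre1 (2.50 ± 0.40), both past the threshold whichever array was left out. Of 14 fibroblast markers 9 rose (likewise 0) and 0 fell, with medians of 1.52 and 1.53 on the 48 h arrays against -0.46 and 0.35 in MPA, among them Postn (2.39 ± 0.24) and Pdgfrb (1.63 ± 0.30). Postn passed in every such fit and Pdgfrb not without MPA replicate 1 or MFP 48 h replicate 1. The macrophage count was 6 when MPA replicate 1 or MFP 48 h replicate 2 was left out and 5 when MFP 48 h replicate 1 was, and the fibroblast count was 4 without any 1 of these 3 arrays. Because the values are ratios, it could not be read which defining markers were at 0 in any group.

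Of 12 neutrophil markers 3 rose (Cxcr2, S100a8 and Csf3r) and 0 fell. Leaving out MPA replicate 1 left 0 of them and MFP 48 h replicate 1 left 1, and the number was 1 without either no MPA array, 2 without any 1 of the 6 h, 12 h and 24 h arrays, and 5 without MFP 48 h replicate 2. Their list medians were 3.19 and 0.74 on the 48 h arrays against -0.11 and 0.10 in MPA. Mmp8 was at 2.86 on both of these arrays. Of the Mmp9 probe sets 1416298_at was lower and 1448291_at higher on the array with the higher neutrophil median. The part of macrophages, neutrophils and fibroblasts in the MMP and TIMP values was not tested.

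Of 15 luminal epithelial markers 1 rose and 4 fell, among them Gata3 (-2.18 ± 0.46) and Esr1 (-1.72 ± 0.23), and the list medians were -0.30 and -0.10 on the 48 h arrays against 0.02 and -0.02 in MPA. The luminal falls numbered 1 without MPA replicate 1 or MFP 48 h replicate 1, Esr1 passing in every such fit, and the rise, of Cldn4, was lost without MPA replicate 1 or MFP 48 h replicate 2. Of 8 osteoclast and bone markers 0 rose and 0 fell in limma, the smallest p being that of Calcr (-0.78 ± 0.23, adjusted p = 0.0637). Markers of other organs varied too. Pancreas markers had medians of 4.84 and 5.66 on the 48 h arrays against 0.48 and -0.72 in MPA, with 7 of 14 rising, 14 without either 24 h array, 5 without either 12 h array, 4 without either no MPA array, 3 without MPA replicate 1, and 0 without MPA replicate 2 or either 48 h array. Muscle markers had 4.34 and 0.21 on the 48 h arrays against 0.08 and -0.09 in MPA. The MMP and TIMP genes had medians of 1.99 and 2.07 on these 2 arrays, and the part of muscle and pancreas in the 48 h values was not tested. Of 15 liver markers 0 rose or fell at 48 h in limma, with Fgb at -0.81 ± 0.38 (adjusted p = 0.226), and of 13 muscle markers 0 did, with 11 rising without MFP 48 h replicate 2. At an unadjusted p under 0.05 there were 1 osteoclast marker lower, 9 muscle markers higher and 0 liver markers in either direction. Of the 45037 probe sets 10787 were under it, in either direction.

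**Figure D4:**
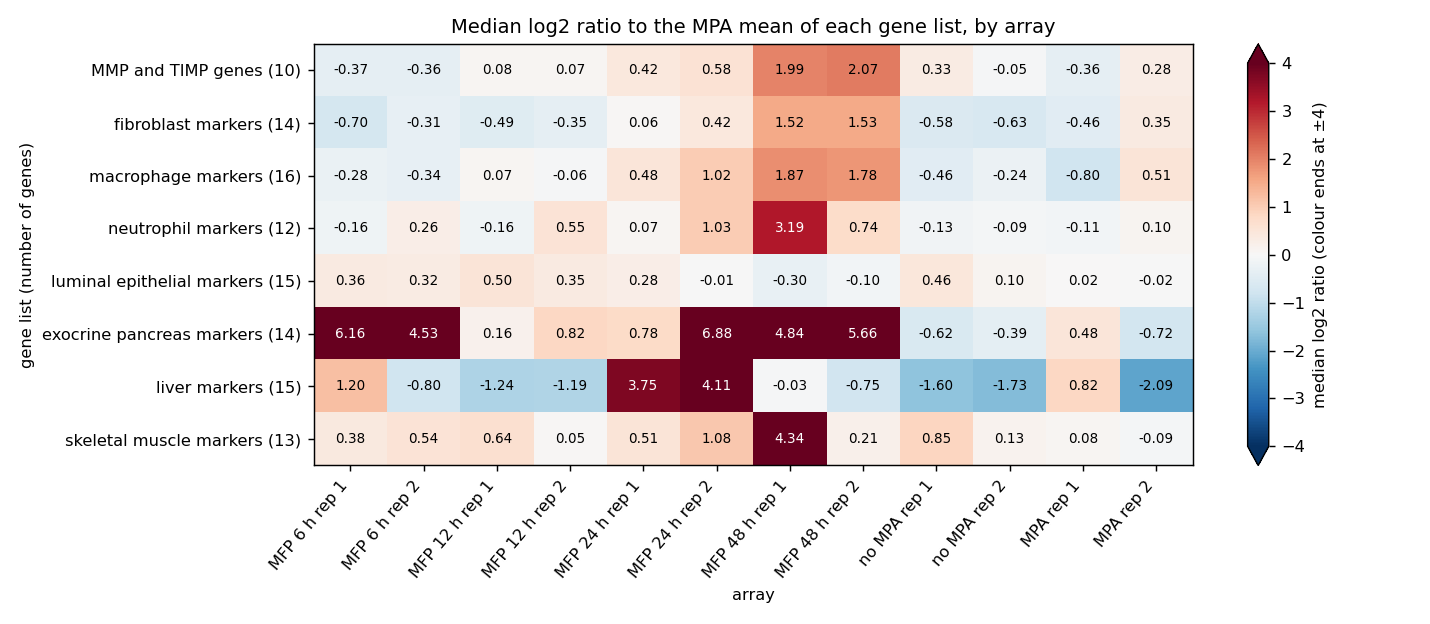
Median log2 ratio to the MPA mean over the genes of each list (rows, with the number of genes) on each array (columns, MFP 6 h to MFP 48 h, then no MPA and MPA), printed and coloured, red above 0 and blue below, with the colour ending at ±4. The MMP and TIMP genes reached 1.99 and 2.07 on the 48 h arrays, macrophage markers 1.87 and 1.78, and fibroblast markers 1.52 and 1.53.

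Genes whose values were most like those of each member over the 12 arrays, among 18193 genes, were named by Pearson correlation. These points include the high 48 h arrays, so r is also given over the 10 arrays without 48 h. Timp1 was most like Mfap5, Sparc and Col15a1, genes of matrix proteins (r = 0.99 each, and 0.97 without 48 h). Timp3 was most like Col18a1 (r = 0.99, and 0.98 without 48 h), and Mmp2 like Csf1r, the receptor of macrophage growth factors (0.98 and 0.96), C1qb (0.98 and 0.95) and Fbln2 (0.97 and 0.92). Mmp8 was most like Nrp1 (0.99 and 0.92) and Mmp9 like Bicc1 (0.99 and 0.95). Mmp14 was most like Rbms1 (0.97 and 0.95), and Mmp11 like Ypel3 (0.94 and 0.96), Klf7 (0.93 and 0.93) and Rnf139 (0.91 and 0.98). Mmp3 was most like Pi15 (0.96 and 0.81), Pofut2 (0.95 and 0.80) and Lgr6 (0.92 and 0.41), each lower without the 48 h arrays. The most like gene was Cdk20 (0.91 and 0.87) for Mmp12 and Nubp2 (0.93 and 0.92) for Mmp13.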

How the data were processed

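The 12 arrays, of RNA from C4-HD tumours, were put in 6 groups of 2 by their source names. Per the submitters' processing notes the authors summarised the arrays with GCRMA (for its version, none is given here). Values were deposited on the log2 scale: in 45099 of 45101 probe sets the 2 MPA arrays, made linear, had a mean of 1 to within 0.0001, so each value is a log2 ratio to that mean. The scanner's values were not used here, and signal over background is unknown. By this construction MPA is narrow, with an SD over probe sets of 0.26 and 0.27 against 0.39 to 0.74 elsewhere.

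Tests used limma 3.58.1 in R 4.3.3 on the 45037 non-control probe sets, with 1 mean per group over all 12 arrays, 9 contrasts (the trend is the slope of the 4 MFP times on log2 hours) and two-sided eBayes on 6 residual and 4.38 prior degrees of freedom. P-values were adjusted by Benjamini-Hochberg, at 0.05. The platform annotation gives 1 symbol to 34945 of these probe sets, several to 932 and none to 9160. For lists and correlations a gene was represented by its most variable probe set, by SD across arrays, which favours larger changes.

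The members and the 14 lists were chosen with earlier results of these data known. All members are named. From each list the rule names up to 3 genes per direction with the smallest p at 48 h over MPA, or the 1 with the smallest p where none passed, and Timp2 and Reck always, and for each member the 3 genes most like it, of which some are printed. Of 18 other MMP, TIMP and RECK genes listed, 5 were not analysed here. The fit was tested on simulated data with the residual spread of the probe sets and independent normal noise. In each of 10 simulations 200 of the 45037 probe sets were changed. At 48 h over MPA it recovered 23% of changes of 1 log2 unit, 76.1% of 2 and 92.1% of 3. Of its calls 4.22% were false. A change that did not pass may therefore be real. The shares recovered and false depend on how many probe sets change, and 4166 were called in the data. The simulated noise was also independent between probe sets, unlike the shared order of the MPA arrays described above. These shares may thus not carry over to the data. Alternatives were 1 probe set per gene, arrays centred on their medians, quantile normalization, robust eBayes, array weights, a filter on SD, the compared arrays alone, and leaving out each array.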

Additional observations from a re-analysis of the deposited data

Results flagged for a closer look

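Differences between successive MFP times that passed the test among the members are set out here. The steps tested were 24 h over 12 h and 48 h over 24 h, and that from 6 h to 12 h was not tested. Mmp3 (1418945_at) was higher at 48 h than at 24 h by 1.74 ± 0.34 on the log2 scale (adjusted p = 0.0388), with 1.10 and 1.84 at 48 h against 0.01 and -0.56 at 24 h. Mmp8 (1449366_at) was higher by 1.77 ± 0.24 (adjusted p = 0.0062), with 2.86 and 2.86 at 48 h against 1.47 and 0.70 at 24 h. Each contrast was tested in limma as a difference of the group means, and it equals the difference between the changes over MPA at the 2 times, which share the MPA arrays.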

How the results depend on the processing

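No paired analysis was possible because the labels carry no replicate numbers. Centring each array on its median and robust eBayes moved no count of probe sets or member probe sets by over 1.5 times. With 1 probe set per gene the calls over all features numbered 228, 778, 1591 and 2272 at the 4 times over MPA, 2277 at 48 h over no MPA and 2684 for the trend, fewer because fewer features were tested, against 417, 1409, 2708, 4166, 4212 and 5416 among all probe sets. Quantile normalization gives the narrow MPA columns the spread of the others, and calls over all probe sets then numbered 133, 229, 45 and 18 at the 4 times over MPA, 6 for no MPA over MPA (0 in the fit of the report), 175 at 48 h over no MPA, 4 and 0 between successive times, and 554 for the trend. Under it 0 member probe sets passed at 6 h, 12 h, 24 h and between 48 h and 24 h, 1 at 48 h over MPA (Mmp8) and 1 over no MPA, and 2 for the trend, and Mmp13 at 48 h over no MPA turned to -0.79. Of the called probe sets 15.56% were higher at 24 h (47.9% in the fit of the report), 16.67% at 48 h over MPA (47.24%), 34.29% at 48 h over no MPA (54.27%) and 39.89% for the trend (50.06%). With the compared arrays alone, which leaves 2 residual degrees of freedom, 5, 0, 194 and 87 probe sets passed at the 4 times over MPA, 444 between 24 h and 12 h (684 in the fit of the report) and 234 between 48 h and 24 h (530), with 0, 0, 0 and 1 (Mmp8) member probe sets over MPA, 1 between 24 h and 12 h and 0 between 48 h and 24 h. Array weights gave 1540 probe sets and 2 members at 24 h over MPA and 1 member between 48 h and 24 h, and the filter on SD gave 190 probe sets at 6 h.

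Leaving out each array in turn, calls over all probe sets over MPA lay in the ranges 2 to 473 (6 h), 90 to 1435 (12 h), 981 to 2640 (24 h) and 921 to 4356 (48 h). They lay between 0 and 5 for no MPA over MPA, 1180 and 4425 at 48 h over no MPA, 253 and 1377 between 24 h and 12 h, 291 and 701 between 48 h and 24 h, and 2541 and 6023 for the trend. Member probe sets called lay between 0 and 1 at both 6 h and 12 h over MPA, 0 and 5 for 24 h, 4 and 10 for 48 h, 0 and 0 for no MPA, 8 and 12 at 48 h over no MPA, 0 and 1 between 24 h and 12 h, 1 and 6 between 48 h and 24 h, and 9 and 15 for the trend. Signs turned for Mmp14 1440920_at at 48 h over MPA (-0.12 without MPA replicate 1, up to 0.63), and at 48 h over no MPA for Mmp11 (0.22 without no MPA replicate 1, 0.001 without MFP 48 h replicate 1, lowest -0.33) and Mmp13 (-1.15 without no MPA replicate 2, -0.05 without MFP 48 h replicate 1, highest 2.09), none of them called. Timp1 at 6 h and 12 h over MPA turned to 0.11 and 0.31 without MPA replicate 2, and was called at -2.24 and -2.03 without MPA replicate 1. The alternatives for the gene lists were chosen after the data had been seen: at 48 h over MPA 0 genes of the 14 lists passed with quantile normalization, and with the compared arrays alone 8 pancreas markers did and 0 others. Signal over background, unknown here, limits all values, and the causes of changes other than those named were not tested.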
